A study of Mus musculus with 36 samples.

Results

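The mouse mitochondrial genome encodes 37 genes, and all 37 were present in the count table, where they were taken as every symbol that begins with mt-, out of 49568 symbols in all. They comprise 13 mRNAs, 2 rRNAs and 22 tRNAs. The mRNAs held 97.1% of the counts of the set, the rRNAs 2.86% and the tRNAs 0.0201%. Every mRNA and rRNA had at least 1 count somewhere in the series, whereas 9 of the 22 tRNAs had none in any library.

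The libraries came from the left carotid artery of the mouse, tied off to drive remodelling of the wall and collected 14 days later. Mice were C57BL/6 (B6; the treatment protocol and the design text give C57BL/6J) or 129X1/SvJ (129X1). They received vehicle at 2 mL/kg/day, valsartan (Val, an angiotensin receptor blocker) at 27 mg/kg/day or sacubitril/valsartan (Sac/val, which adds a neprilysin inhibitor) at 60 mg/kg/day. Dosing was prophylactic, over 16 days that began 2 days before the ligation, or therapeutic, over 7 days from day 7. The 12 combinations held 3 mice each, 36 libraries in all, and all mice shared the ligation. The labels give no age, no sex and no allele beyond the strain name, and every group is an inbred strain under 1 operation, with no unligated artery among the samples. The libraries were Illumina TruSeq Stranded mRNA, a kit that selects polyadenylated RNA.

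Mitochondrial genes are read from both strands of a small circular DNA as long transcripts, which are cut at the tRNAs that lie between most of the coding genes. The heavy-strand transcript carries both rRNAs and nearly all mRNAs, and the light-strand transcript carries mt-Nd6 and a minority of the tRNAs. The mRNAs encode core subunits of complexes I, III, IV and V of the respiratory chain, whose remaining subunits come from nuclear genes. Stretches of mitochondrial DNA have also been copied into the nuclear chromosomes, so that some mitochondrial sequence exists in more than 1 place in the reference genome.

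The libraries held between 18.96 M and 28.97 M counts, with a median of 22.78 M. The arteries carried varying amounts of other tissue: Ucp1, the uncoupling protein of brown fat, lay between 76.1 and 3213 CPM (counts scaled to a library total of 1000000), Acta1, the actin of skeletal muscle, between 2.22 and 9450 CPM, and Rag1, the recombinase of developing lymphocytes, between 0.0451 and 1738 CPM, which reached 10 CPM in 16 libraries. The contractile smooth muscle markers, which define the labelled tissue, were all 10 counted in every library, with a summed level of 760 to 4402 CPM. These are bulk samples, in which fewer cells of a type and less RNA per cell cannot be told apart.

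Levels per kilobase of gene, on the scale of CPM per kilobase, differed widely between the members. mt-Co1, the catalytic subunit of complex IV (chrM:5328-6872, GRCm38, 1-based), averaged 15368 ± 4892 (SD, n = 36) and mt-Cytb, the cytochrome b of complex III (chrM:14145-15288), 14819 ± 5439. mt-Co1 exceeded mt-Cytb in 28 of the 36 libraries, so the order of these leading mRNAs was not the same throughout. Below them came the complex I subunits mt-Nd1 (chrM:2751-3707) at 11314 ± 4145, mt-Nd2 (chrM:3914-4951) at 7487 ± 2615, mt-Nd4 (chrM:10167-11544) at 5030 ± 1690 and mt-Nd5 (chrM:11742-13565) at 3265 ± 1221. In each of the 36 libraries these 4 stood in that order, and each lay below mt-Cytb. The rRNAs mt-Rnr1 of the small ribosomal subunit (chrM:70-1024) and mt-Rnr2 of the large (chrM:1094-2675) averaged 849 ± 264 and 841 ± 283, and mt-Rnr1 was the higher in 20 libraries. The order of this pair was not independent of strain: the ratio of mt-Rnr2 to mt-Rnr1 counts averaged 1.55 in B6 and 1.70 in 129X1. mt-Nd6, the light-strand mRNA of complex I (chrM:13552-14070), averaged 112 ± 45.1 and was the lowest of these 9 members in every library. The kit selects polyadenylated RNA, so the rRNA and tRNA values are levels in these libraries and not in the tissue.

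The remaining 6 mRNAs lie side by side between positions 7013 and 10173 of the mitochondrial chromosome (GRCm38, 1-based) and were almost uncounted. Over all 36 libraries, mt-Co2 of complex IV had 112 counts, mt-Atp8 and mt-Atp6 of complex V had 1 and 50, mt-Co3 of complex IV had 47, and mt-Nd3 and mt-Nd4l of complex I had 44 and 1. Together they received 255 counts, against 952849 for mt-Co1 in its single highest library. The tRNAs mt-Ts1, mt-Td, mt-Tk, mt-Tg and mt-Tr, which lie in or beside the same stretch, had no count in any library. This was not particular to the stretch, as mt-Tf, mt-Th, mt-Ts2 and mt-Tl2, which lie outside it, had none either.

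**Figure D1:**
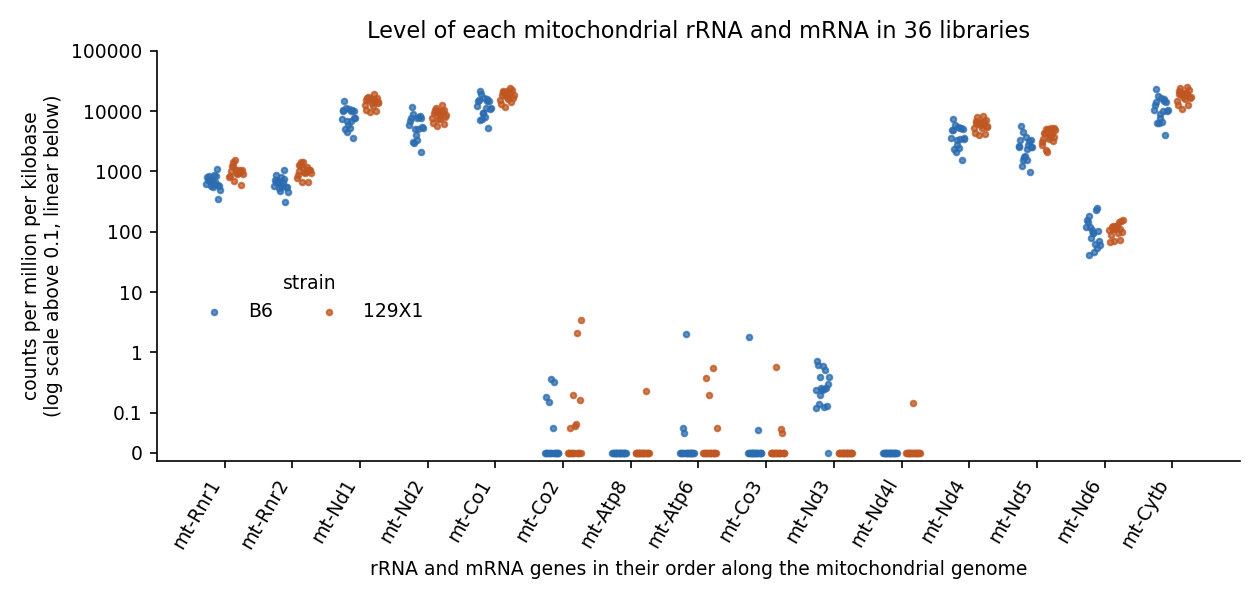
CPM per kilobase (log scale above 0.1, linear below) of the 2 rRNAs and 13 mRNAs in their order along the mitochondrial genome, 1 point per library, coloured by strain. The 6 adjacent genes from mt-Co2 to mt-Nd4l lie at or near 0 between neighbours that lie well above them in every library, and mt-Nd3 is above 0 in B6 only.

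The near-silent stretch coincided with a nuclear copy. A block of 7 annotated pseudogenes on chromosome 1, chr1:24611535-24616197 on the minus strand (4663 bases, GRCm38), repeats the mitochondrial genes from the end of mt-Co1 into mt-Nd4 in the same order. Gm28661, Gm10925, Gm28437, Gm10222 and Gm28439 were identical over their whole aligned length to mt-Co2, mt-Atp6, mt-Co3, mt-Nd4l and the first 876 bases of mt-Nd4. Gm29216 repeats the last 492 bases of mt-Co1 with 6 differences near its start, followed by 479 identical bases. Of the 50-base windows of each mRNA, the share also found in an annotated nuclear transcript was 100% for mt-Co2, 99.9% for mt-Co3, 99.5% for mt-Atp6, 98.8% for mt-Nd4l and 98.0% for mt-Nd3. It was 62.2% for mt-Nd4, 51.1% for mt-Co1, 8.19% for mt-Nd2, 7.61% for mt-Nd5, 1.04% for mt-Rnr2 and 0% for mt-Nd1, mt-Nd6, mt-Cytb and mt-Rnr1. mt-Atp8 also stood at 0%, but most of its place in the block (chr1:24614609-24614812) falls between annotated copies. The part inside Gm10925, which ends at chr1:24614651, is shorter than a 50-base window. How the authors' counting treated reads that match several places is not given in the sources used here, and its part in these levels was not tested. mt-Nd4 and mt-Co1, which share many windows with copies, are uncertain as levels for the same reason.

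The start of mt-Nd3 is printed beside its copy. Among the near-uncounted mRNAs with an annotated copy in the block, mt-Nd3 is the only one that differs from that copy. The counts of both by strain are given after the sequences. Over 345 aligned bases Gm28438 differed from mt-Nd3 by T3C, counted from 1 at the 5′ end of the gene (position 9461 of the mitochondrial chromosome), with mt-Nd3 carrying the first base of the token. The first 121 bases of both are printed 5′ to 3′ from the GENCODE M21 transcripts, mt-Nd3 at chrM:9459-9579 on the plus strand and Gm28438 at chr1:24612999-24613119 on the minus strand, with the differing base in capitals.
mt-Nd3: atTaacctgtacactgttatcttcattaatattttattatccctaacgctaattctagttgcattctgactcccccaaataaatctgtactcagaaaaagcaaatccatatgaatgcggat
Gm28438: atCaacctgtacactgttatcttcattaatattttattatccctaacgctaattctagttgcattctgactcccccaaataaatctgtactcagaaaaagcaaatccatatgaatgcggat

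The strains divided on this pair. mt-Nd3 had 44 counts over the 18 B6 libraries, with 17 libraries at 1 to 6 counts and 1 at 0, and 0 counts in all 18 129X1 libraries. Scaled to depth, its assigned counts were at least 14.2-fold higher in B6, with 3 counts over the group taken as the floor for 129X1 and no uncertainty put on the 44. The part of read assignment between mt-Nd3 and its copy was not tested. The copy went the other way: Gm28438 had 6 counts over the B6 libraries, at most 2 in any, and 1271 over the 129X1 libraries, with 43, 67 and 95 counts as the lowest, median and highest. No 129X1 library overlapped a B6 library for Gm28438, and no 129X1 library had a single mt-Nd3 count. In edgeR's quasi-likelihood test Gm28438 was higher in 129X1 by 7.73 on the log2 scale (SE 0.386, adjusted p = 1.87e-13), in a comparison of the strains in which 16.3% of all 18628 genes tested were called higher in 129X1. The fitted value depends on the prior count because B6 is nearly at 0. The files hold counts per gene and not per base, so which base the reads carried was not examined.

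**Figure D2:**
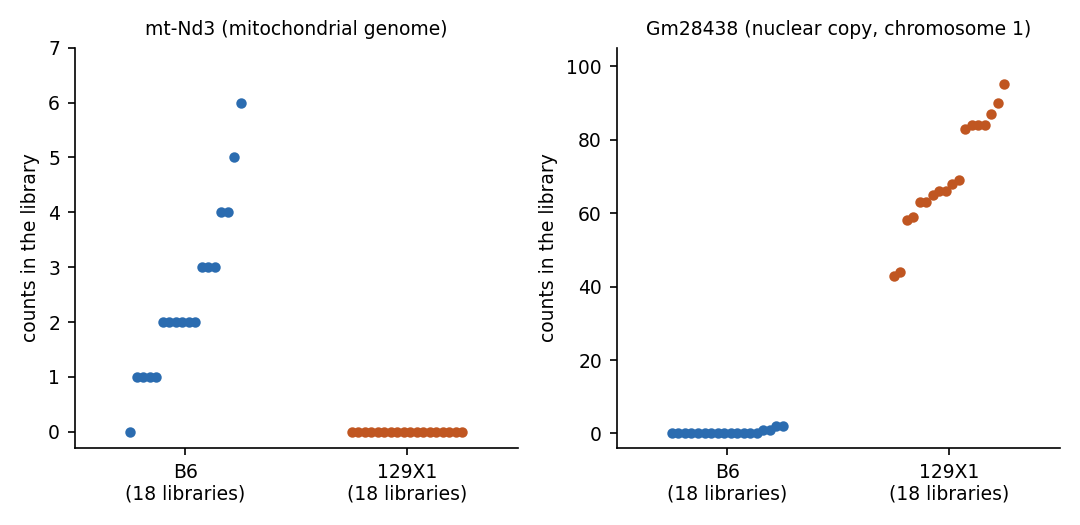
Counts of mt-Nd3 (left) and of its chromosome 1 copy Gm28438 (right) in each library, sorted within strain. B6 libraries reach 6 for mt-Nd3 and 2 for the copy, and 129X1 libraries are at 0 for mt-Nd3 and between 43 and 95 for the copy.

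The other copies of the block were also counted unevenly. Gm10222, the copy of mt-Nd4l, had 3 counts in B6 and 69 in 129X1, with 17 of 18 129X1 libraries at 1 or more. Gm28437, the copy of mt-Co3, was higher in 129X1 by 2.78 (edgeR, SE 0.759, adjusted p = 0.00567), with a highest library of 322 counts and medians of 4.5 counts in B6 and 9 in 129X1, so that a few libraries carried most of its counts. Gm28661, the copy of mt-Co2, did not go that way, with 73 counts in B6 and 66 in 129X1. Gm10925, the copy of mt-Atp6, had 322 counts in B6, 270 of them in 1 library (Sac/val therapeutic replicate 3), and 83 in 129X1, a log2 difference of -0.43 (edgeR adjusted p = 0.590). Gm29216, the copy of the end of mt-Co1, had 180 counts in the median B6 library and 276.5 in the median 129X1 library and was higher in 129X1 by 1.11 (edgeR, SE 0.283, adjusted p = 0.00319). Single libraries stood far above the rest for the members as well. mt-Co2 had 55 of its 112 counts in 1 library (129X1 vehicle therapeutic replicate 3), mt-Atp6 had 31 of 50 in another (B6 Val prophylactic replicate 2) and mt-Co3 had 34 of 47 in B6 Sac/val prophylactic replicate 2. Over all 14 counted nuclear genes that share a 50-base run with a member, a library held 183 to 2042 counts, with a median of 958.

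The share of a library's counts that came from the mitochondrial genome was higher in 129X1 than in B6. In 129X1 it was 5.65% in the lowest, 9.10% in the median and 12.1% in the highest of 18 libraries (mean 8.99% ± 1.75, SD). In B6 it was 2.31%, 5.38% and 10.9% (mean 5.89% ± 2.23, SD, n = 18). All 18 129X1 libraries lay above the B6 median and 10 of the 18 B6 libraries lay below the lowest 129X1 library, although the ranges overlapped. The difference was 0.69 on the log2 scale, a ratio of geometric means of 1.61, and passed a two-sided permutation test within the 6 combinations of regimen and treatment (p = 2e-05, adjusted p = 1e-04 over 5 comparisons). It was positive in 6 of 6 combinations, from 0.25 under prophylactic Sac/val to 1.00 under prophylactic Val.

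No treatment comparison of the share passed its test over the strata, although Sac/val lay wholly above Val in 2 of the 4 combinations of strain and regimen. Within a group of 3 the highest library exceeded the lowest by 1.12-fold to 3.29-fold, with a median of 1.41-fold. Under prophylactic dosing in B6 the shares were 7.34%, 7.59% and 2.31% with vehicle, 3.31%, 4.59% and 4.13% with Val, and 5.48%, 6.70% and 7.19% with Sac/val. Here every Sac/val library lay above every Val library, and the vehicle group spanned both, with replicate 3 the lowest library of the series. Under therapeutic dosing in B6 the shares were 7.11%, 5.21% and 5.28% with vehicle, 7.94%, 3.59% and 5.15% with Val, and 10.9%, 3.37% and 8.82% with Sac/val. The 3 groups overlapped, and the Sac/val group alone held both the highest and the lowest of these 9 libraries.

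In 129X1 under prophylactic dosing the shares were 12.1%, 9.59% and 6.49% with vehicle, 5.65%, 8.75% and 10.1% with Val, and 7.51%, 6.39% and 9.20% with Sac/val, and all 3 groups overlapped. Under therapeutic dosing in 129X1 they were 11.0%, 8.26% and 9.01% with vehicle, 8.67%, 7.86% and 9.74% with Val, and 10.4%, 11.2% and 9.95% with Sac/val. Sac/val again lay wholly above Val in this stratum and overlapped vehicle. With 3 against 3 an exact permutation test cannot go below p = 0.1, the value for both non-overlapping pairs.

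**Figure D3:**
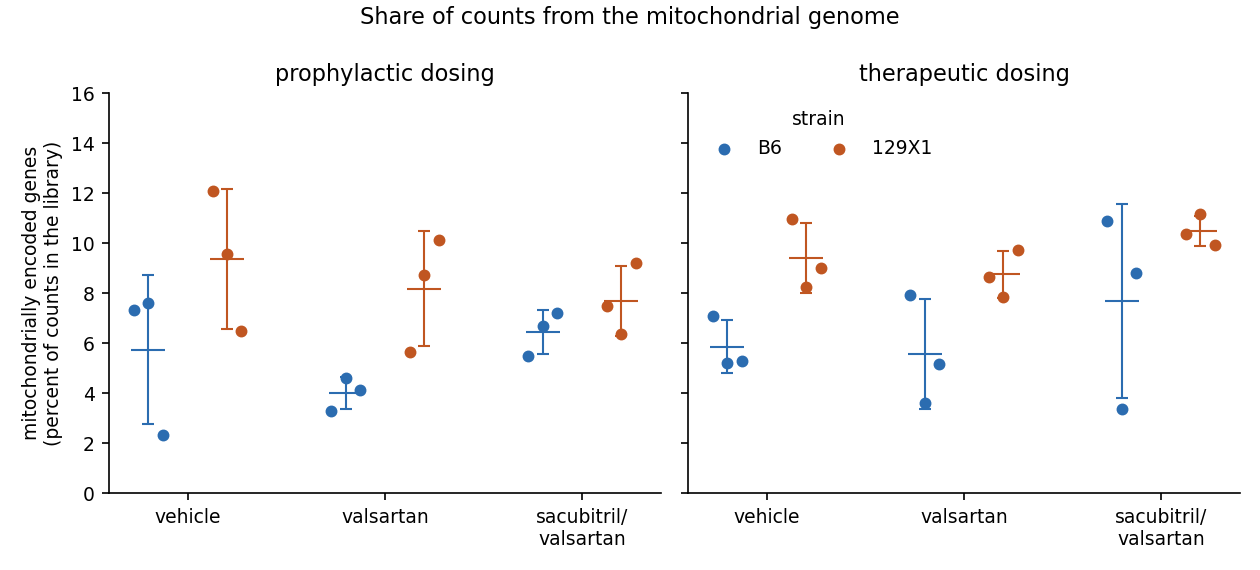
Percent of each library's counts that fell on the 37 mitochondrial genes, by treatment, regimen and strain. Points are libraries (3 per group), horizontal lines are means and bars are SD, and 129X1 means lie above B6 means in all 6 pairs, with overlap in 4 of them.

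Over the 4 combinations of strain and regimen, the log2 difference in share was 0.12 for Sac/val minus vehicle (exact permutation test, two-sided, p = 0.560, adjusted p = 0.560). For Val minus vehicle it was -0.19, negative in each of the 4 strata (exact p = 0.300, adjusted p = 0.375). For Sac/val minus Val it was 0.32, positive in 3 of 4 (exact p = 0.0853, adjusted p = 0.213). Both drug comparisons with vehicle use the same vehicle libraries. Without B6 Sac/val therapeutic replicate 2, which had 3.37%, Sac/val minus Val became 0.45 with an adjusted p of 0.0273 (exact permutation test). Therapeutic minus prophylactic dosing gave 0.22, positive in 6 of 6 combinations (permutation p = 0.147, adjusted p = 0.245), and without that same library 0.31 with an adjusted p of 0.0403 (permutation test). For mt-Co1, the most abundant member, the edgeR 95% interval of the log2 difference ran from -0.36 to 0.57 for Sac/val minus vehicle, from -0.73 to 0.20 for Val minus vehicle and from -0.09 to 0.84 for Sac/val minus Val.

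Gene by gene, 15 of the 37 members passed edgeR's filter on low counts, which were 7 mRNAs, both rRNAs and 6 tRNAs. In the strain comparison 10 of these 15 were higher in 129X1 at an adjusted p below 0.05 and 0 were lower, with 16.3% of all tested genes called higher and 33.8% called in either direction. The median log2 difference over the 15 was 0.63, beside -0.02 over all genes tested. mt-Nd1 rose by 0.88 (SE 0.178, edgeR adjusted p = 3.85e-04) and mt-Cytb by 0.72 (SE 0.201, edgeR adjusted p = 0.00639). mt-Nd4 at 0.67, mt-Co1, mt-Nd5 and mt-Nd2 at 0.63 each, mt-Rnr2 at 0.76 and mt-Rnr1 at 0.63 also passed, with edgeR adjusted p values from 1.26e-04 (mt-Rnr2) to 0.0158 (mt-Nd2). Of the tRNAs, mt-Ti (isoleucine), the only one that averaged at least 5 CPM, rose by 0.92 (SE 0.174, edgeR adjusted p = 2.00e-04). The remaining call was the tRNA mt-Tm (methionine) at 0.90. mt-Nd6 was the exception among the mRNAs tested, at 0.11 (SE 0.192, edgeR adjusted p = 0.713).

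In the vehicle libraries alone, 3 members were called higher in 129X1 and 0 lower, where 13.5% of all genes were called, 7.02% higher and 6.52% lower: mt-Rnr2 at 0.78, mt-Nd1 at 0.92 and mt-Ti at 1.01. For the regimen and for the 3 treatment comparisons over 4 strata, edgeR called 0 members and 0 of all genes (0%). At an unadjusted p below 0.05 these held 3 of 15 members for the regimen (3.22% of all genes), 0 for Sac/val minus vehicle (1.57%), 1 for Val minus vehicle (2.43%) and 1 for Sac/val minus Val (2.64%). DESeq2 called 0 members in each of the 4.

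The strain difference in share moved with other tissue. The brown fat markers, all 10 counted in every library, summed to 1756, 4005 and 5866 CPM in the lowest, median and highest 129X1 library and to 232, 1787 and 3650 CPM in B6. Ucp1 itself rose by 1.503 in 129X1 (SE 0.276, edgeR adjusted p = 1.39e-04), and 9 of the 10 brown fat markers passed in that direction, with a list median of 1.01. Over all genes 16.3% were called higher in 129X1 and 17.5% lower, against which the counts of the other lists stand. Of the 12 adipocyte markers, 8 were higher in 129X1, among them Lipe, the hormone-sensitive lipase, and 1 was lower, the adipokine Retn. Of 10 macrophage markers 7 were lower in 129X1, with summed levels of 580 to 4201 CPM against 813 to 7445 CPM in B6, and of 8 Schwann cell markers 6 were lower, at 760 to 1984 against 641 to 2664 CPM. The 12 skeletal muscle markers summed to 16.3 to 40506 CPM in 129X1 (median 10559) and 86.5 to 27720 CPM in B6 (median 5443). Of these, 2 were called higher in 129X1, a share like that over all genes, with a list median of 1.11. The 10 thymus markers summed to 1.80 to 2429 CPM in 129X1 (median 399) and 5.15 to 6936 CPM in B6 (median 15.3). Of these, 1 was called higher in 129X1, with a list median of 2.22. In 129X1 7 of the 10 were counted in every library, and in B6 6 of the 10. Rag2 and Foxn1 were at 0 in at least 1 library of each strain.

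The share followed the brown fat list across the libraries. That list includes Cox8b and Cox7a1, nuclear genes of complex IV, so it is not independent of mitochondrial content. Over 36 libraries the log2 share and the mean log2 CPM of the 10 markers had a Pearson r of 0.94 and a Spearman rho of 0.92 (permutation p = 1e-05 each, the smallest that 100000 resamples can give; adjusted p = 3.67e-05 over 11 lists). Within B6 r was 0.95 and rho 0.95 (permutation p = 1e-05 each), and within 129X1 r was 0.77 (permutation p = 1.4e-04) and rho 0.77 (permutation p = 3.1e-04). Without the 2 libraries farthest from the median r was 0.92 over all, 0.93 in B6 and 0.61 in 129X1. The adipocyte list gave r = 0.79 and rho = 0.75 (permutation p = 1e-05 each, adjusted p = 3.67e-05), and 0.68 without the 2 farthest. The macrophage list gave r = -0.59 and rho = -0.60 over all libraries (permutation p = 1.2e-04 and 1.6e-04, adjusted p = 3.3e-04 and 4.4e-04; r = -0.56 without the 2 farthest), but within a strain its adjusted p was 0.264 in B6 and 0.523 in 129X1. The Schwann cell list gave r = -0.44 and rho = -0.54 (permutation p = 0.00742 and 7e-04, adjusted p = 0.0163 and 0.00154; r = -0.64 without the 2 farthest) and also did not pass within a strain. The skeletal muscle, smooth muscle, thymus, thyroid, sympathetic neuron and endothelium lists did not pass, with adjusted p values of r from 0.271 to 0.936 over all libraries. Without the 2 farthest libraries r went from 0.25 to 0.44 for skeletal muscle (permutation p = 0.008) and from -0.17 to -0.45 for endothelium (permutation p = 0.00787). Within B6 r then went from -0.38 to -0.64 for macrophage (permutation p = 0.00758) and from -0.01 to -0.51 for Schwann cell (permutation p = 0.0441). Within 129X1 these went from -0.27 to -0.08 and from -0.43 to -0.30 (permutation p = 0.780 and 0.263).

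With the brown fat, skeletal muscle and thymus scores as covariates, the strain calls among the 15 members went from 10 to 3 and the median from 0.63 to 0.06, while calls over all genes went from 6296 to 2704. The brown fat score includes complex IV genes, differed by strain and followed the share. This fit therefore cannot tell tissue content from mitochondrial content. In that fit mt-Rnr2 stayed higher in 129X1 at 0.32 (edgeR adjusted p = 0.0284), whereas mt-Nd1 was at 0.34 (edgeR adjusted p = 0.0582), mt-Cytb at 0.07, mt-Co1 at 0.06 and mt-Nd2 at -0.0044. mt-Nd6 was lower in 129X1 at -0.56 (edgeR adjusted p = 8.60e-04), as was the tRNA mt-Tt (threonine) at -1.30 (edgeR adjusted p = 2.61e-04). The 16 libraries in which Rag1 reached 10 CPM were mostly 129X1 and included every 129X1 library of therapeutic Val. Leaving them out dropped that combination from the strain comparison. Of 129X1 this left Val prophylactic replicates 1 and 2, and replicate 3 of Sac/val under either regimen. It also left vehicle prophylactic replicate 1 and vehicle therapeutic replicate 2. Most combinations thus had no replication in 129X1. In what remained, 2 of 19 members tested and 3821 genes in all were called. These members were mt-Rnr1 at 0.81 and mt-Rnr2 at 0.93. mt-Nd1 at 0.89 (edgeR adjusted p = 0.0943), mt-Ti at 0.92 (edgeR adjusted p = 0.0713) and mt-Co1 at 0.60 (edgeR adjusted p = 0.293) no longer passed at differences close to those over all libraries, and the log2 difference in share was 0.64 (permutation p = 0.043, adjusted p = 0.175).

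The nuclear partners of the mitochondrial subunits moved with them between the strains. Of 61 nuclear subunits of complexes I, III, IV and V, 57 were higher in 129X1 and 0 lower, again beside 16.3% of all genes. Complex I contributed 25 of 27 with a median log2 difference of 0.60, complex III 9 of 9 (0.76), complex IV 10 of 10 (0.56) and complex V 13 of 15 (0.56). Complex II, which has no mitochondrially encoded subunit, showed the same, with 4 of 4 higher and a median of 0.64. Among them Ndufb5 of complex I rose by 0.84 (SE 0.139, edgeR adjusted p = 4.05e-05), Uqcrfs1, the iron-sulfur protein of complex III, by 0.87, Cox4i1 of complex IV by 0.57 and Sdhb of complex II by 0.79. In the fit with the 3 tissue scores, of which the brown fat score includes complex IV genes, 1 of the 65 subunits was called. Across libraries the mean of the 4 complexes' list scores followed the mitochondrial share with r = 0.95 and rho = 0.95 (permutation p = 1e-05 each, adjusted p = 3.67e-05; r = 0.93 without the 2 farthest), with r = 0.98 within B6 and 0.75 within 129X1.

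**Figure D4:**
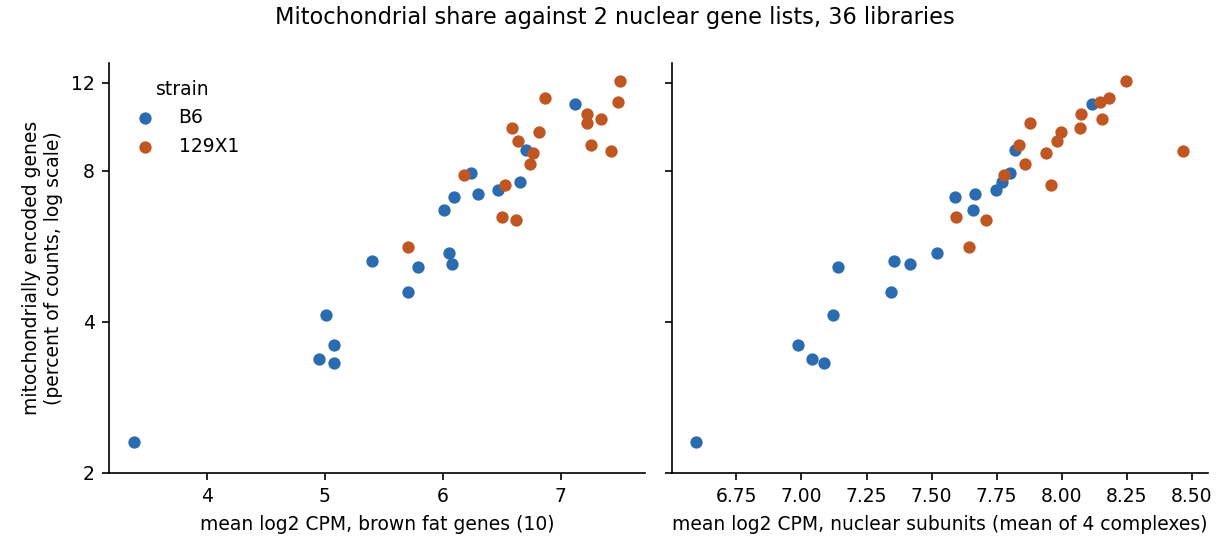
Mitochondrial share of counts (percent, log scale) against the mean log2 CPM of 10 brown fat markers (left) and the mean of the list scores of complexes I, III, IV and V (right), 1 point per library. The share rises with both, and B6 libraries occupy the lower end, down to 2.31%.

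The machinery that makes and processes mitochondrial RNA held calls in both directions, again beside 16.3% of all genes called higher and 17.5% lower. Of 17 genes for transcription and maintenance of mitochondrial DNA, 9 were higher in 129X1 and 1 lower (median 0.23). Tfb1m, a methyltransferase of the mitochondrial small rRNA, rose by 0.68, Tfb2m, the transcription initiation factor, by 0.65 and Tefm, the elongation factor, by 0.57, while Mgme1, a mitochondrial exonuclease, fell by 0.41 (edgeR adjusted p from 1.31e-06 for Tfb1m to 1.73e-04 for Tefm). Of 24 tested genes for processing and stability of mitochondrial RNA, 16 were higher and 0 lower (median 0.37), including Fastkd1 at 0.67, Supv3l1, a helicase of the RNA degradosome, at 0.55, Ptcd2 at 0.43 and Nsun4 at 0.37. Of 9 regulators of mitochondrial biogenesis, 3 were higher, the nuclear receptors Esrra at 0.64, Esrrg at 0.91 and Ppara at 1.09, and the coactivator Pprc1 was lower at -0.39, so that 4 of 9 were called in either direction beside 33.8% of all genes. Nnt, the mitochondrial transhydrogenase gene known to be defective in C57BL/6J, averaged 22.5 ± 7.89 CPM in B6 and 32.4 ± 6.65 CPM in 129X1 (SD, n = 18 each), a log2 difference of 0.62 (SE 0.110, edgeR adjusted p = 9.03e-05).

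The nuclear genes whose log2 CPM was most like that of the summed mitochondrial mRNAs over the 36 libraries encode metabolic enzymes. Among 12510 nuclear genes that averaged at least 5 CPM, the highest Pearson r was that of Idh3a at 0.98. Those at 0.97 included Idh3b, which like Idh3a acts in the citric acid cycle, Acadm, Acadvl, Hadh and Acaa2 of mitochondrial fatty acid oxidation, Etfdh, which passes their electrons to ubiquinone, Phyh of peroxisomal fatty acid oxidation and Uqcrc1 of complex III. The median r over all candidates was -0.29. These correlations are a description, over libraries that share strain, tissue content and depth.

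The members also moved together within the set. Over the 36 libraries mt-Cytb and mt-Nd4 had the highest Pearson r of log2 CPM, 0.99, and the rRNAs correlated with each other at 0.99 but with the mRNAs other than mt-Nd6 at 0.65 to 0.88. mt-Nd6 correlated with the other 8 abundant members at 0.50 to 0.71, the lowest set of values among them. All these values share the scaling to the same library total and are given as a description.

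The balance between the members, which is not scaled to the library total, differed by strain in small steps. It was not constant over libraries of unlike share. Within B6 the highest mt-Co1 portion of mRNA counts, 36.05%, came at a share of 3.31% (Val prophylactic replicate 1). The lowest, 31.7%, came at 10.9% (Sac/val therapeutic replicate 1). The part of tissue content in the strain differences of balance was not tested. mt-Nd1 made up 14.8%, 15.5% and 19.0% of mitochondrial mRNA counts in the lowest, median and highest 129X1 library and 12.7%, 13.9% and 15.5% in B6. All 18 129X1 libraries lay above the B6 median and 9 above the highest B6 library, a log2 difference of 0.18 (permutation p = 1e-05, adjusted p = 4.5e-04 over 45 tests, positive in 6 of 6 combinations). mt-Co1 made up 30.7%, 32.5% and 33.9% in 129X1 and 31.7%, 33.9% and 36.05% in B6, lower in 129X1 by a log2 difference of -0.07 in 6 of 6 combinations (permutation p = 8e-05, adjusted p = 0.0018). Complex I mRNAs relative to complex IV mRNAs were accordingly higher in 129X1 by 0.11 (permutation p = 2e-05, adjusted p = 5e-04 over 25 tests). As complex IV was counted almost only through mt-Co1, this ratio does not describe mt-Co2 or mt-Co3. Of the 50-base windows, 51.1% of those of mt-Co1 and 0% of those of mt-Nd1 occur in nuclear copies, and the part of read assignment in this difference was not tested.

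The rRNAs differed from each other in the same way. The ratio of mt-Rnr2 to mt-Rnr1 counts was 1.54, 1.71 and 1.82 in the lowest, median and highest 129X1 library (mean 1.70 ± 0.0775, SD, n = 18) and 1.42, 1.54 and 1.68 in B6 (mean 1.55 ± 0.0685, SD, n = 18). All 18 129X1 libraries lay above the B6 median and 12 above every B6 library, a log2 difference of 0.14 (permutation p = 1e-05, adjusted p = 5e-05, positive in 6 of 6 combinations). The ratio of rRNA to mRNA counts did not differ detectably by strain, with a log2 difference of -0.03 (permutation p = 0.808, adjusted p = 0.841). By treatment it averaged 2.80 ± 0.523 rRNA counts per 100 mRNA counts with vehicle, 3.40 ± 0.672 with Val and 3.06 ± 0.888 with Sac/val (SD, n = 12 each). Val minus vehicle was 0.28, positive in 4 of 4 strata, but did not pass (exact permutation p = 0.0116, adjusted p = 0.0727). The adjusted p fell below 0.05 when any 1 of 5 libraries was left out (Val prophylactic replicate 3 of either strain, 129X1 Val therapeutic replicate 3, B6 Val therapeutic replicate 1 or 129X1 vehicle therapeutic replicate 2), with values from 0.0214 to 0.0498 (exact permutation test). One library stood apart in balance: 129X1 Val prophylactic replicate 2 had the highest mt-Nd1 share (19.0%), the lowest mt-Nd5 share (4.61%, against 7.04% in the next library) and 4.53 rRNA counts per 100 mRNA counts, the highest of 129X1.

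The light-strand transcripts stood apart from the other members in 1 combination of strain and regimen. Per 10000 mitochondrial mRNA counts, prophylactically dosed B6 arteries had 16.8, 17.3 and 12.5 mt-Nd6 counts with vehicle, 12.9, 12.8 and 12.6 with Val, and 11.7, 12.4 and 10.6 with Sac/val. The other 27 libraries had 5.18, 6.63 and 9.11 as the lowest, median and highest. All 9 prophylactic B6 libraries lay above every other library, under each of the 3 treatments. Therapeutic minus prophylactic dosing was -0.90 on the log2 scale in B6 (exact permutation p = 2.5e-04, adjusted p = 0.0035 over 28 tests) and 0.11 in 129X1 (exact permutation p = 0.289, adjusted p = 0.459). The difference between these, 1.01, passed its own test with regimen labels moved within each strain and treatment (permutation p = 6e-05, adjusted p = 4.2e-04 over 7 measures). Averaged over the design, mt-Nd6 relative to the other mRNAs was lower in 129X1 by a log2 difference of -0.55 (permutation p = 1.9e-04, adjusted p = 0.00237), which was -1.05 under prophylactic dosing (exact permutation p = 2.5e-04, adjusted p = 0.0035) and -0.05 under therapeutic dosing (exact permutation p = 0.677, adjusted p = 0.763).

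The light-strand tRNAs showed the same libraries apart. These 8 tRNAs, among them mt-Tp (proline), mt-Te (glutamate) and mt-Tq (glutamine), had 17.9, 34.6 and 82.8 counts per 1000000 mitochondrial mRNA counts in the lowest, median and highest prophylactic B6 library. They had 1.36 to 15.9 in therapeutic B6, 2.69 to 12.7 in prophylactic 129X1 and 3.40 to 23.3 in therapeutic 129X1 libraries. Only the highest therapeutic 129X1 library reached into the prophylactic B6 range. mt-Tp had 210 counts in the 9 prophylactic B6 libraries and 32 in the 9 therapeutic ones, and was lower under therapeutic dosing in B6 by a log2 difference of -2.92 (SE 0.449, edgeR adjusted p = 0.00243). It was the 1 member called of 15 in that comparison, in which 0.129% of all genes were called. Between the strains mt-Tp was lower in 129X1 under prophylactic dosing, at -1.82 (edgeR adjusted p = 0.00268; 21.7% of all genes called), and higher under therapeutic dosing, at 1.82 (edgeR adjusted p = 0.00682; 13.3% of all genes called). mt-Te had 158 and 34 counts, at -2.89 (SE 0.764, edgeR adjusted p = 0.311), and mt-Nd6 was at -0.62 (SE 0.273, edgeR adjusted p = 1.00). The strain by regimen term for mt-Tp was 3.64 (SE 0.614, edgeR adjusted p = 0.0525; 0 members and 0% of all genes called). The heavy-strand tRNAs stayed between 128 and 253 per 1000000 mRNA counts in all 36 libraries.

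Counts on the strand opposite to other genes were also high in these 9 libraries, and how far they stood apart depended on the antisense genes summed. Over 44 annotated noncoding genes that lie inside exons of abundant protein-coding genes on the opposite strand, without the 10 with most counts, prophylactic B6 libraries had 4.20, 6.96 and 13.3 antisense counts per 10000 sense counts as the lowest, median and highest. The other 27 had 0.549, 1.66 and 3.82, so that all 9 again lay above every other library. This measure rests on few reads, as each antisense gene left in it averaged at most 3.58 counts per library. Its sense total includes Ttn, the titin of striated muscle, at a mean of 14747 counts, whose antisense gene had 0. The part of muscle content in the measure was not tested. With the 10 kept, prophylactic B6 libraries had 11.4 to 27.8, therapeutic B6 libraries 5.43 to 9.09 and 129X1 libraries 4.70 to 15.3. On that measure all 9 lay above every therapeutic B6 library, but 2 of the 9 lay within the 129X1 range. Within the 9, the measure without the 10 and the mt-Nd6 ratio had a Pearson r of 0.89 (permutation p = 0.00441, adjusted p = 0.00926 over 4 tests) and a Spearman rho of 0.68 (permutation p = 0.0499, adjusted p = 0.0666). Without the 2 farthest libraries r was 0.57 and did not pass (permutation p = 0.167), in a set too small to say how far the relation rests on those 2. Within the other 27, r was 0.43 (permutation p = 0.0245, adjusted p = 0.0326) and rho 0.55 (permutation p = 0.00379, adjusted p = 0.0152), with r = 0.58 without the 2 farthest. With the 10 kept, r was 0.87 and rho 0.75 within the 9 (permutation p = 0.00463 and 0.0256, adjusted p = 0.00926 and 0.0511; r = 0.73, permutation p = 0.101, without the 2 farthest). Within the other 27, r was then 0.06 and rho 0.04 (permutation p = 0.765 and 0.842, adjusted p = 0.765 and 0.842; r = -0.0041 without the 2 farthest). Whether the authors' counting used strand is not given in the sources used here, and the part of strand assignment in the mt-Nd6 and tRNA differences was not tested. Without the B6 vehicle prophylactic replicates 1 and 2, which had the most antisense counts, the difference in B6 was -0.80 (exact permutation p = 6.25e-04).

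**Figure D5:**
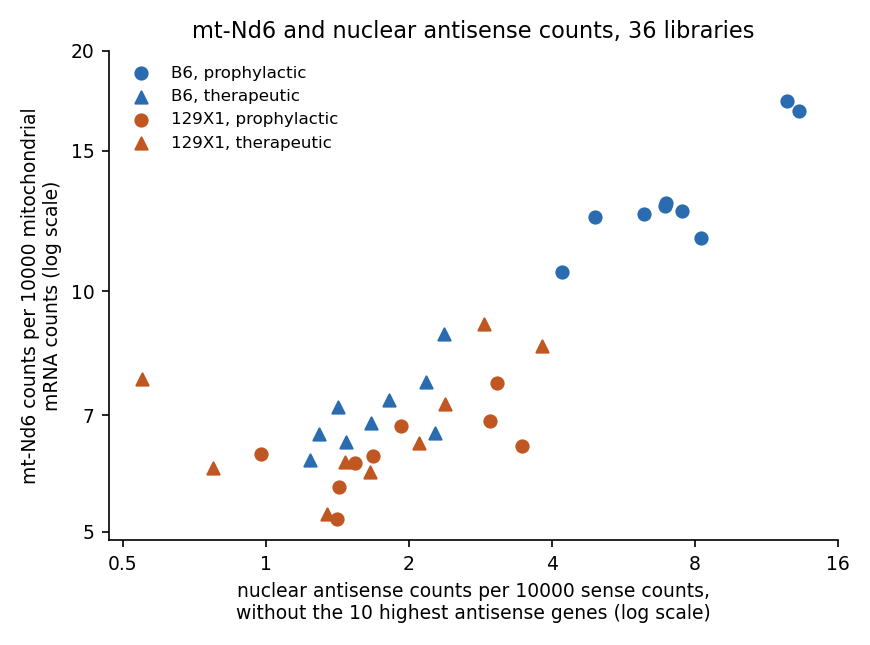
mt-Nd6 counts per 10000 mitochondrial mRNA counts against nuclear antisense counts per 10000 sense counts without the 10 highest antisense genes (both on log scales), 1 point per library, by strain and regimen. The 9 prophylactic B6 libraries lie apart at the upper right, above 10 on the mt-Nd6 axis, and the other 27 lie below.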

How the data were processed

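The ligated left carotid arteries of 36 mice were sequenced as stranded mRNA libraries. The deposited table holds whole-number read counts per gene symbol for the 36 libraries. The authors used Trimmomatic 0.36, STAR 2.5.2b and featureCounts of Subread 1.5.0p3 with GRCm38, per the submitters' processing notes. The annotation release, the strand setting and the handling of reads with several matches are not given in the sources used here. Labels name 1 animal per library.

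Shares and ratios of summed counts (pseudocount 0.5 for ratios) were compared on the log2 scale by two-sided permutation of labels within the other factors, exact or with 100000 resamples, with Benjamini-Hochberg adjustment over each family. Genes were tested with edgeR 4.0.16 in R 4.3.3 (quasi-likelihood, filterByExpr over 12 groups, 18628 genes, TMM factors 0.820 to 1.13, 12 group means, 24 residual degrees of freedom), adjusted over all genes in each comparison, threshold 0.05. SE of edgeR differences are the absolute log2 difference divided by the square root of its F statistic, and the edgeR intervals follow from them. They are therefore approximate. CPM are counts scaled to a library total of 1000000. DESeq2 1.42.0 was an alternative. Permutations and correlations used SciPy 1.17.1 with NumPy 2.4.6. The permutation test was tried on simulated shares with a known strain difference. The other alternatives were DESeq2 size factors, no filter, library sizes without the members, animal number as a covariate, 3 tissue scores as covariates, other pseudocounts, and leaving out each library or the libraries with Rag1. The regimen comparison within each strain and the reverse, the strain by regimen test, the mt-Rnr2 to mt-Rnr1 ratio, the member shares, the antisense measure and the search for nuclear copies were chosen after seeing the data.

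Named are all mRNA and rRNA members, tRNAs that average at least 5 CPM, up to 4 called genes per related list with the smallest p for strain, the 10 nuclear genes most like the summed mRNAs (1 of which is not reported here), and Nnt. Other tRNAs and the nuclear copies were named after their values were seen. The members and lists were chosen with earlier results of these data known. Nuclear copies were found by exact 50-base windows of GENCODE M21 transcripts (GRCm38).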

Additional observations from a re-analysis of the deposited data

Results flagged for a closer look

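The change of mt-Nd6 relative to the other mitochondrial mRNAs with dosing regimen differed between the strains. Therapeutic minus prophylactic dosing was -0.90 in B6 and 0.11 in 129X1 on the log2 scale, and the difference of 1.01 passed a permutation test of the difference itself (p = 6e-05, adjusted p = 4.2e-04 over 7 measures). All 9 prophylactic B6 libraries lay on the high side. The counts antisense to nuclear genes were also high in these 9 libraries. All 9 lay above every other library when the 10 antisense genes with most counts were left out, which leaves few reads, and 7 of 9 did when they were kept. Their part in the difference was not tested.

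The ratio of tRNA to mRNA counts also changed differently with regimen in the strains, at -0.31 in B6, which did not pass (exact permutation p = 0.0338, adjusted p = 0.0788, negative in 2 of 3 treatments), and 0.25 in 129X1, with a difference of 0.56 (permutation p = 2.8e-04, adjusted p = 9.8e-04). In 129X1 all 3 treatments were higher under therapeutic dosing (exact permutation p = 0.0025, adjusted p = 0.01). The tRNAs held a median of 316 and at most 627 counts per library, so this ratio rests on few reads.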

How the results depend on the processing

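Among the members, the strain calls were 10 in the reported fit, 3 with the 3 tissue scores as covariates (mt-Nd2 turned to -0.0044 and mt-Nd6 to -0.56) and 2 without the 16 libraries with Rag1 (mt-Nd6 at -0.16). They were 10 or 11 with DESeq2, DESeq2 size factors, library sizes without the members, animal number and no filter. For nuclear subunits the calls went from 61 of 65 to 1 and 4 in the same 2 settings. The cause was not tested, beyond the fewer libraries of the Rag1 setting. The log2 difference in share between strains stayed between 0.59 and 0.74 when single libraries were left out, and became 0.64 with an adjusted p of 0.175 (permutation test) without the libraries with Rag1.

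Val minus vehicle turned to 0.073 for rRNA alone. Sac/val minus vehicle ran from -0.017 to 0.25 when single libraries were left out and turned negative without B6 vehicle prophylactic replicate 3, at 2.31% the lowest. Over the same settings Sac/val minus Val ran from 0.24 to 0.45 and the regimen difference from 0.13 to 0.31. Of the 25 ratios tested 3 passed, 1 without the libraries with Rag1, and 3 or 4 with single libraries left out. For the regimen in B6, members called were 1, 2 with tissue scores and 0 without the libraries with Rag1. For strain by regimen they were 0, 1 with DESeq2, animal number or library sizes without the members, 2 with tissue scores, and 0 or 1 with single libraries left out. The gained member was mt-Tp, without 129X1 vehicle prophylactic replicate 1, 129X1 vehicle therapeutic replicates 1 or 2, B6 Val therapeutic replicate 2, B6 vehicle therapeutic replicate 3 or B6 vehicle prophylactic replicate 3, at 3.75 to 4.02.

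No paired analysis was possible because the labels carry animal numbers only and replicate numbers were given in accession order. The pseudocount bears on tRNA and complex V ratios, which rest on few counts, and the 6 near-uncounted mRNAs are too shallow for a comparison of levels. For mt-Nd3, with 44 counts in all and 98.0% of its 50-base windows in a nuclear copy, the strain split is one of assigned counts.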
